A study of Mus musculus with 5 samples.

Results

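Genes for the synthesis, breakdown and sensing of prostaglandins, the pathway that aspirin inhibits, were examined in the gut of mice given aspirin with or without a probiotic strain or a mucosal drug. The 10 genes, Ptgs2, Ptges, Ptges2, Ptges3, Ptgis, Hpgd, Ptger1, Ptger2, Ptger3 and Ptger4, were taken by name from the 19938 genes that have a probe set of their own on the Affymetrix Mouse Gene 1.0 ST array. All 10 were measured, and 9 had a mean log2 value above 7.41, the level that splits all genes into equal parts, which served as the filter. The exception was Ptger2. Ptgs1, the gene of the constitutive cyclooxygenase, is not analysed here.

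The 5 arrays came from male ddY mice, an outbred stock, at 5 weeks of age, and there was 1 array for each treatment. The groups were LG21+Asp, Tep+Asp, GA+Asp, LG21+GA and the control GA+GA. LG21 is Lactobacillus gasseri OLL2716, Tep is teprenone, a drug that protects the stomach lining, Asp is aspirin, and GA is gum arabic, the vehicle. Every group, the control included, was dosed by mouth on a pair of occasions shortly after each other. The gut was collected 4 hours after the last dose, and part of it was used for RNA. Whether an array holds 1 mouse or a pool is not given in the sources used here, so no difference between a pair of arrays below is set against the spread between animals.

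Cyclooxygenases turn arachidonic acid, released from membranes by phospholipases, into prostaglandin H2, which terminal synthases convert into prostaglandin E2, prostacyclin and other prostanoids. In the stomach, prostaglandin E2 sustains mucus and bicarbonate secretion and blood flow and restrains acid secretion, and aspirin acetylates both cyclooxygenase enzymes and blocks their product. Prostaglandin E2 acts through a family of G protein coupled receptors, EP1 to EP4, and is inactivated by a dehydrogenase encoded by Hpgd.

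The deposited numbers are log2 expression values made by RMA, a method that corrects background, normalizes between arrays and summarises each probe set. Array medians lay between 6.94 and 6.98. All 12 measured markers of gastric surface, neck, chief and parietal cells passed the filter, with a list mean between 12.66 and 12.67 on each array. Of 10 markers of intestinal epithelium 5 passed and 5 did not. Those past the filter were Vil1, at 8.12 to 8.20, Cdx1, at 7.60 to 7.70, Fabp1, at 8.13 to 8.51, Krt20, at 10.13 to 10.49, and Lct, at 7.45 to 7.57. Those below it included the transcription factor Cdx2, at 6.40 to 6.43, and the goblet cell mucin Muc2, at 6.59. The tissue labelled gut thus carried the defining markers of the stomach on all 5 arrays, and part of the intestinal list.

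Ptgs2, the gene of the inducible cyclooxygenase, spread over the widest range of the 10 genes. Its promoter is shown with that of Ptges2, a prostaglandin E synthase, because the same E-box letters stand in both while the order of the arrays differed between these genes. Both stretches are from RefSeq (GRCm38.p6), cover 250 bases before and 50 after the annotated start, and are read 5′ to 3′ on the gene's own strand. Ptgs2 lies at chr1:150099781-150100080 on the plus strand and Ptges2 at chr2:32395640-32395939 on the plus strand. Capitals mark the motifs found.
Ptgs2: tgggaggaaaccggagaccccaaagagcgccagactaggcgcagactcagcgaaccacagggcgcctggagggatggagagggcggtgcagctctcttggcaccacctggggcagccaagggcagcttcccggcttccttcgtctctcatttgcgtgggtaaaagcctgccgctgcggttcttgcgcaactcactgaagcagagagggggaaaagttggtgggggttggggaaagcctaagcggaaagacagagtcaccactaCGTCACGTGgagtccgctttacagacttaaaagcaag
Ptges2: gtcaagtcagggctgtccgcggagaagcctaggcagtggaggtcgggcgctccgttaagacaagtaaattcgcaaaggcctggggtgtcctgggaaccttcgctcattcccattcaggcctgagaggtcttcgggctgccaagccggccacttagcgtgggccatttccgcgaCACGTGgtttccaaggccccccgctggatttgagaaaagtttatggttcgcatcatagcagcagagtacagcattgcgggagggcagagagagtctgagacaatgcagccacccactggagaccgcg

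The search covered 4 motifs on both strands. These were the letters TATAAA of the box that positions the start of transcription, the letters CACGTG of the E-box, the letters TGACG at the core of a cyclic AMP response element, and the letters CCAAT of the box that carries this name. In the Ptgs2 stretch the E-box occupied bases 267 to 272. The TGACG motif, on the opposite strand, occupied bases 264 to 268. These motifs overlap, and both lie after the annotated start. In the Ptges2 stretch the E-box occupied bases 174 to 179, before the annotated start. CACGTG was present in 7.17% and TGACG in 20.9% of 32544 RefSeq promoters of the same length. RefSeq gave a promoter for 8 of the 10 genes. The Hpgd stretch held the letters TATAAA, which 13.6% of promoters held, at bases 255 to 260. They lie after the annotated start, so this match was not read as a box that positions it. The Ptges3 stretch held the same TGACG core at bases 262 to 266, also after the annotated start. Those of Ptger2 and Ptger4 held the CCAAT box, present in 37.4%. None of the 4 was in the stretches of Ptges and Ptger3. A match is only a run of letters, and no binding was measured.

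Cyclooxygenase came first among the synthesis genes. Ptgs2 stood at 8.18 in LG21+Asp, 8.24 in Tep+Asp, 7.91 in GA+Asp, 7.93 in LG21+GA and 7.74 in GA+GA. The aspirin arrays with LG21 or teprenone were the highest and the control was the lowest, while GA+Asp and LG21+GA lay side by side in between. From highest to lowest the range was 0.50, wider than in 98.6% of the genes past the filter, whose median range was 0.088.

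**Figure D1:**
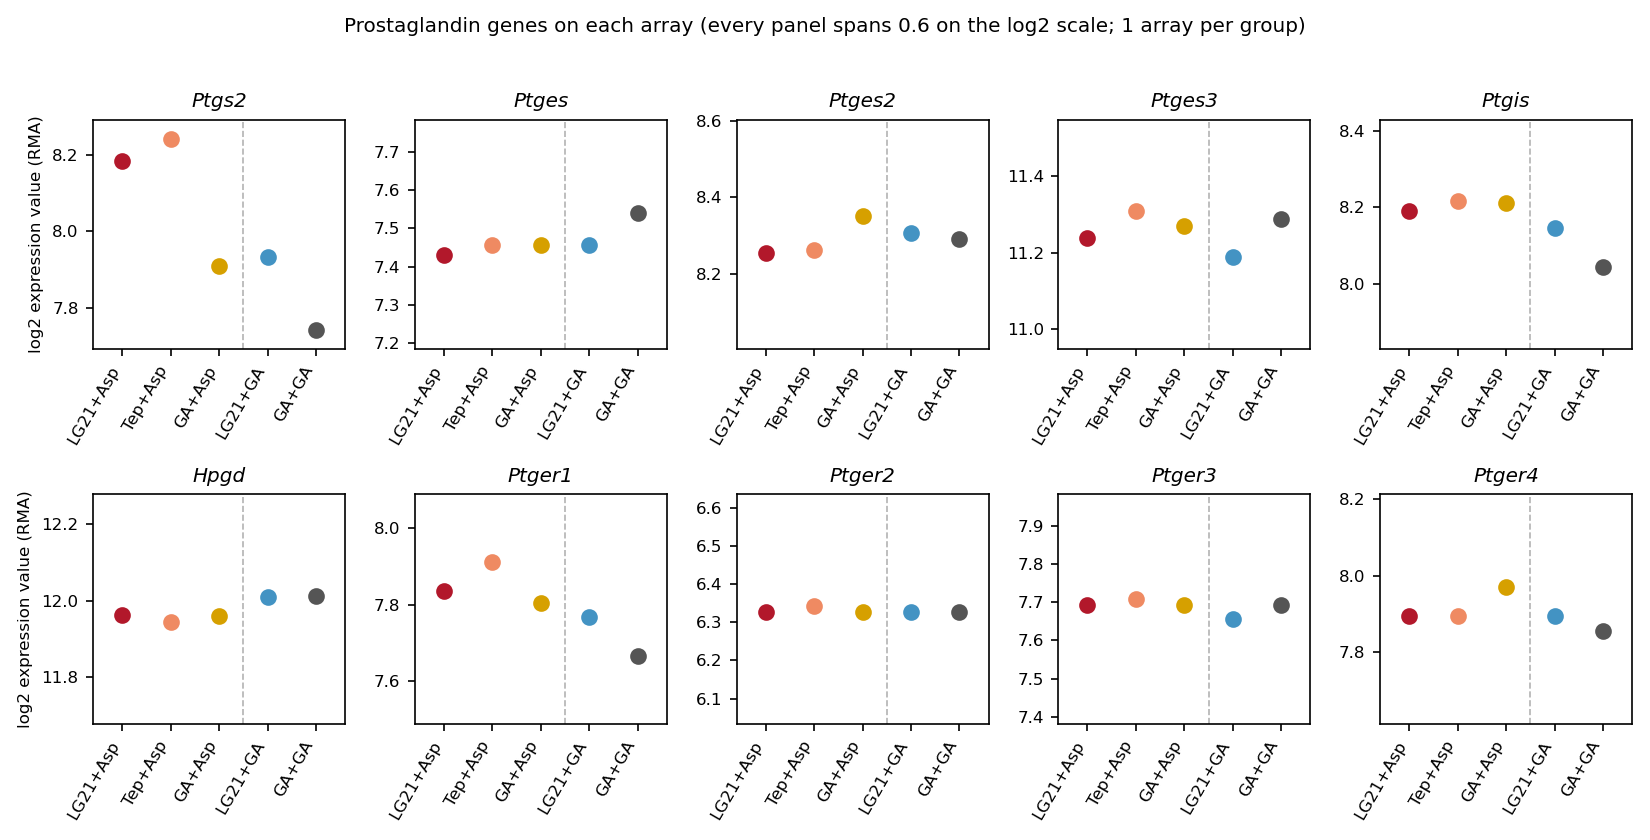
Log2 expression value of each of the 10 genes (vertical axis) on each array (horizontal axis), 1 point per array, with the 3 aspirin arrays left of the dashed line. Every panel spans 0.6 on the log2 scale, and Ptgs2, with a range of 0.50, fills most of its panel while Ptger2, with a range of 0.016, is flat.

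The first question was how the pathway differed when LG21 or teprenone was given with aspirin. Ptgs2 was 1.21-fold higher in LG21+Asp than in GA+Asp, a log2 difference of 0.27, and it was the only 1 of the 10 genes at least 0.2 apart, a size of 1.15-fold. In the same pair of arrays 3.66% of the genes past the filter were at least 0.2 apart, and 1.19% were at least 0.2 higher. In Tep+Asp it was 1.26-fold higher than in GA+Asp, a difference of 0.33, again alone among the 10, where 2.62% of filtered genes were at least 0.2 apart and 1.43% that much higher. Its difference exceeded that of 99.4% of filtered genes with LG21 and 99.3% with teprenone. These comparisons share the GA+Asp array, so they are not independent of each other. Between LG21+Asp and Tep+Asp it differed by -0.058, and 0 of the 10 genes were at least 0.2 apart, against 2.66% of filtered genes.

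Aspirin alone, GA+Asp against GA+GA, put 0 of the 10 genes at least 0.2 apart, where 3.68% of filtered genes were. Ptgs2 was 1.12-fold higher, a difference of 0.17, larger than in 96.3% of filtered genes. In mice given LG21 the aspirin difference, LG21+Asp against LG21+GA, was 0.25 or 1.19-fold, larger than in 99.6% of filtered genes. There Ptgs2 was once more the 1 gene of the 10 past 0.2, against 3.08% of filtered genes past it either way and 0.752% upward. LG21 without aspirin, LG21+GA against GA+GA, gave 0.19 or 1.14-fold for Ptgs2, with 0 of the 10 genes and 2.42% of filtered genes at least 0.2 apart.

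In the square of 4 arrays formed by LG21 and aspirin, each given or not, all 4 Ptgs2 differences were thus above 0, from 0.17 to 0.27. The interaction, the aspirin difference in LG21 mice minus that in vehicle mice, was 0.084 for Ptgs2. None of the 10 genes had an interaction of 0.2 either way (0 of 10), against 7.01% of filtered genes. Differences above 0 on all 4 sides were found in 2 of the 10 genes, Ptgs2 and Ptger1, and in 6% of filtered genes. Differences below 0 on all sides were found in 1 of the 10, Ptges, and in 6.12% of filtered genes. Ranked by the smallest of the 4 differences, a measure chosen after the values were seen, Ptgs2 was first of the 9969 filtered genes at 0.17, ahead of Grrp1 at 0.15, and 8 genes reached 0.1. Among all 19938 genes it was number 3. The 4 sides share arrays, and no spread between animals enters this ranking.

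**Figure D2:**
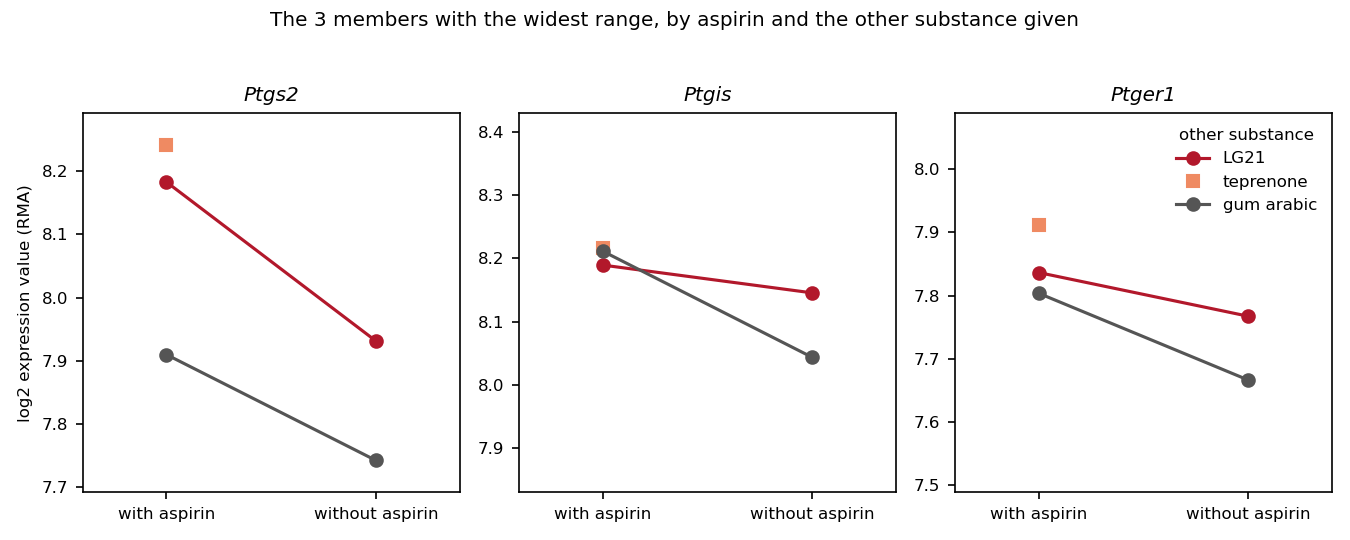
Log2 expression values of Ptgs2, Ptgis and Ptger1 (vertical axes, each spanning 0.6) in groups with and without aspirin (horizontal axis), with lines joining the LG21 groups and the gum arabic groups and a square for teprenone, 1 array per point. The Ptgs2 lines run nearly parallel and apart, while for Ptgis the gum arabic point with aspirin, 8.21, lies above the LG21 point, 8.19.

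The terminal synthases varied less. Ptgis, the prostacyclin synthase of endothelium and smooth muscle, stood at 8.19 in LG21+Asp, 8.22 in Tep+Asp, 8.21 in GA+Asp, 8.15 in LG21+GA and 8.04 in GA+GA. All 3 aspirin arrays lay above both others, and the aspirin arrays lay within 0.027 of each other. The aspirin difference was 0.17 in vehicle mice and 0.044 in LG21 mice, an interaction of -0.12, the widest of the 10 genes.

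Ptges, the inducible microsomal prostaglandin E synthase that is often coupled to Ptgs2, was highest in the control, where Ptgs2 was lowest. It stood at 7.43 in LG21+Asp, at 7.46 in each of Tep+Asp, GA+Asp and LG21+GA, and at 7.54 in GA+GA. Of the 5 arrays 3 had exactly the same value. Its range was 0.11.

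Ptges2, a membrane-associated prostaglandin E synthase, had 8.26 in LG21+Asp, 8.26 in Tep+Asp, 8.35 in GA+Asp, 8.31 in LG21+GA and 8.29 in GA+GA. GA+Asp was the highest and both other aspirin arrays the lowest, with differences from GA+Asp of -0.097 for LG21+Asp and -0.090 for Tep+Asp. Ptges3, the cytosolic prostaglandin E synthase better known as the p23 co-chaperone of Hsp90, had 11.24, 11.31 and 11.27 in LG21+Asp, Tep+Asp and GA+Asp, against 11.19 in LG21+GA and 11.29 in GA+GA. Aspirin and other arrays overlapped. Its 3 probe sets had ranges of 0.096, 0.11 and 0.12, all with LG21+GA as the lowest array. The values given are those of the highest set. The lowest set ran from 8.23 in LG21+GA to 8.33 in GA+GA and differed in sign from the others in both pairs that follow. Tep+Asp against GA+Asp was -0.029 in it, and 0.0375 and 0.024 in the others. LG21+Asp against GA+Asp was 0.016 in it, and -0.031 and -0.045 in the others.

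Breakdown was represented by Hpgd, which starts the inactivation of prostaglandin E2. Its values were 11.96 in LG21+Asp, 11.95 in Tep+Asp and 11.96 in GA+Asp, against 12.01 in LG21+GA and 12.01 in GA+GA. The aspirin arrays lay below both others without overlap, with a log2 difference of -0.051 in GA+Asp against GA+GA and of -0.049 in LG21+Asp against LG21+GA. Its range, 0.067, was wider than in only 36.9% of filtered genes. The LG21 differences were 0.0010 with aspirin and -0.0018 without it.

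Among the receptors, Ptger1, which encodes EP1, a receptor that raises intracellular calcium, had the widest range. It stood at 7.84 in LG21+Asp, 7.91 in Tep+Asp, 7.80 in GA+Asp, 7.77 in LG21+GA and 7.67 in GA+GA. Aspirin arrays lay above both others, as for Ptgis but not for Ptgs2. Tep+Asp was highest and the control lowest, as for both Ptgs2 and Ptgis. The range was 0.24, wider than in 92.7% of filtered genes.

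Ptger4, encoding EP4, which raises cyclic AMP, had 7.97 in GA+Asp and an identical 7.89 in LG21+Asp, Tep+Asp and LG21+GA, against 7.86 in GA+GA. GA+Asp was highest and differed by 0.11 from the control. LG21+Asp and Tep+Asp were each 0.076 below GA+Asp. Ptger3, encoding EP3, the receptor that lowers cyclic AMP and restrains acid secretion by parietal cells, had 7.69 in LG21+Asp, GA+Asp and GA+GA, 7.71 in Tep+Asp and 7.66 in LG21+GA. Ptger2, encoding EP2, which raises cyclic AMP, had 6.34 in Tep+Asp and 6.33 on each of the other 4 arrays. That lies below the filter. Exact ties such as these occurred in 4 of the 10 genes and in 68.9% of filtered genes, and they limit what small differences can show.

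**Figure D3:**
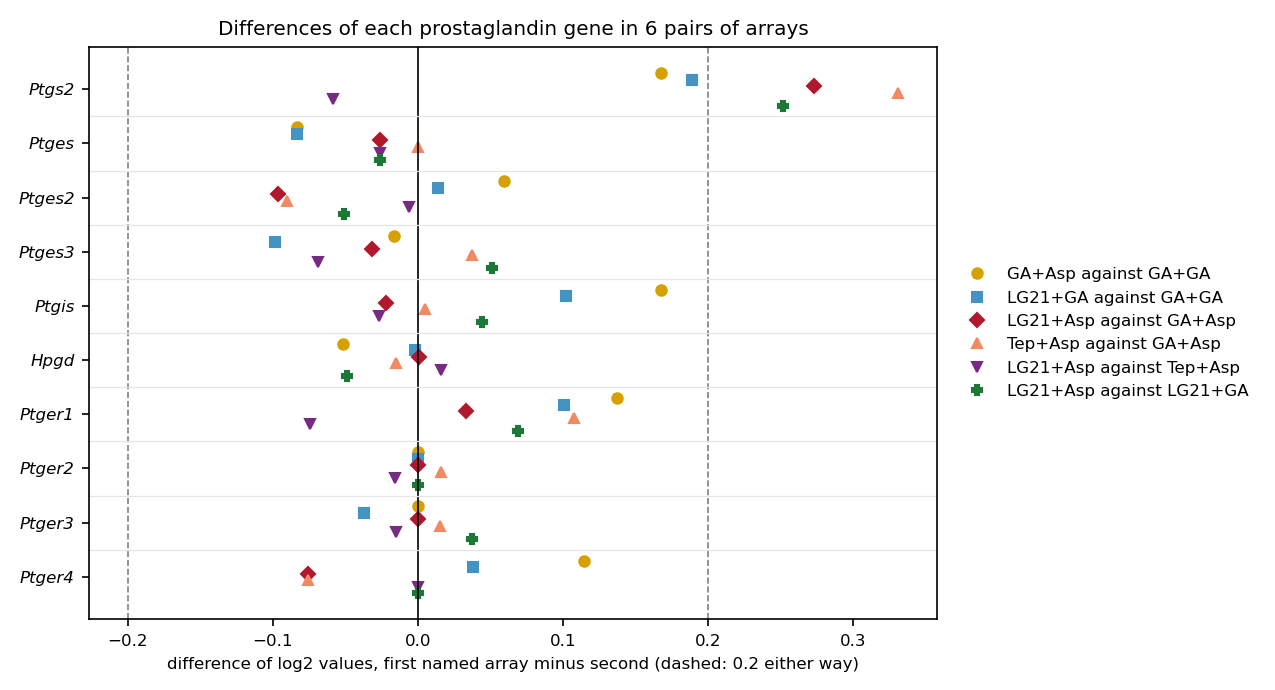
Differences of log2 values (horizontal axis) for each of the 10 genes (vertical axis) in 6 pairs of arrays, the first named array minus the second, 1 array in each group. Only Ptgs2 has points beyond the dashed line at 0.2, with 0.27, 0.33 and 0.25, and all points of the other 9 genes lie within 0.17 of 0.

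Outside Ptgs2 the largest difference in any pair was 0.17, for Ptgis. The median difference over the 10 genes was 0.030 in GA+Asp against GA+GA, where that of all filtered genes was 0.013. It was 0.0069 in LG21+GA against GA+GA, beside 0.00 for filtered genes, and -0.011 in LG21+Asp against GA+Asp, beside -0.013. In Tep+Asp against GA+Asp it was 0.010, beside -0.0030. It was 0.019 in LG21+Asp against LG21+GA and -0.021 in LG21+Asp against Tep+Asp, each beside 0.00. In the last pair 8 of the 10 genes were below 0, 1 above and 1 equal. There 30.9% of filtered genes were above 0 and 21.8% equal.

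Tep+Asp was strictly the highest array in 6 of the 10 genes, Ptgs2, Ptges3, Ptgis, Ptger1, Ptger2 and Ptger3, and in 17.2% of filtered genes. For Ptges3 this held in 1 of its 3 probe sets, the others being highest in GA+GA. The lead of Tep+Asp over GA+Asp was small for Ptgis (0.0046), Ptger3 (0.015) and Ptger2 (0.016), the last below the filter. GA+GA was strictly the lowest in 4, Ptgs2, Ptgis, Ptger1 and Ptger4, and in 26.3% of filtered genes. Marker lists of other cell types also differed between these arrays. The list mean of 10 fibroblast and endothelial genes was 9.16 in LG21+Asp, 9.31 in Tep+Asp, 9.16 in GA+Asp, 9.18 in LG21+GA and 9.15 in GA+GA. The 8 smooth muscle genes averaged 10.81, 10.87 and 10.79 in LG21+Asp, Tep+Asp and GA+Asp, against 10.82 in LG21+GA and 10.77 in GA+GA. Both lists thus had their highest mean in Tep+Asp and their lowest in GA+GA, as Ptgs2, Ptgis and Ptger1 did. The 10 macrophage and neutrophil genes averaged least, 6.93, in LG21+GA and most in Tep+Asp, and the 8 tuft cell genes averaged between 7.24 and 7.39, with 6 genes of each list below the filter.

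The 10 mast cell genes averaged 7.26 in LG21+Asp, 7.47 in Tep+Asp, 7.41 in GA+Asp, 7.70 in LG21+GA and 7.51 in GA+GA, with 4 genes past the filter. Of these, Mcpt2, a mucosal mast cell protease, was at 7.94 in LG21+Asp against 9.26 in LG21+GA, and Mcpt1, another such protease below the filter, at 6.40 against 8.45 in the same pair. The list mean was thus lowest in LG21+Asp and highest in LG21+GA, while Ptgs2 was higher in LG21+Asp than in LG21+GA. Not all mast cell genes moved this way. In that pair 6 of the 10 were below 0, 3 above and 1 equal. At least 0.2 lower were 4, where 4.36% of all genes were that far apart either way. Of the others past the filter, Cpa3 differed by -0.51, Hdc by 0.016 and Kit by 0.010.

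Squamous epithelium and hepatocyte markers spanned the widest ranges. The 10 squamous markers averaged 7.28 in LG21+Asp, 8.62 in Tep+Asp, 8.09 in GA+Asp, 8.22 in LG21+GA and 8.26 in GA+GA, and the 12 hepatocyte markers 9.19, 8.32, 7.46, 9.86 and 10.44 in the same order. LG21+Asp and Tep+Asp lay at opposite ends of the squamous list and 0.058 apart in Ptgs2. The hepatocyte mean was lower on all 3 aspirin arrays than on both others. Ptgis, Ptger1 and Hpgd also split the arrays in this way, Ptgis and Ptger1 upward and Hpgd downward. In GA+Asp against GA+GA 10 of the 12 hepatocyte markers were at least 0.2 lower and 2 lay within 0.2. There 3.68% of filtered genes were at least 0.2 apart. The part of these markers in the results was not tested, and in whole tissue fewer cells of a type and less RNA per cell cannot be told apart.

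The 3 aspirin arrays were compared with the 2 without aspirin, across the other substances given; the LG21 arrays were not tested against the rest in this way. The comparison asks what the aspirin arrays shared whatever else was given, and was fitted with limma over the 9969 filtered genes. Ptgs2 averaged 8.11 in the aspirin arrays and 7.84 in the others, a difference of 0.27 ± 0.13 (SE, 95% interval -0.10 to 0.65, limma adjusted p = 0.735). Ptgs2 overlapped between the sides, since GA+Asp lay below LG21+GA. Ptger1 averaged 7.85 in the aspirin arrays and 7.72 in the others, a difference of 0.13 ± 0.050 (SE, limma adjusted p = 0.735). Ptgis averaged 8.21 and 8.09, 0.11 ± 0.035 apart, and Hpgd 11.96 and 12.01, -0.055 ± 0.0083 apart, both with the same limma adjusted p of 0.735.

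No gene passed an adjusted p of 0.05 in limma, so 0 of the 9 filtered genes of the pathway did either (background 0%). At an unadjusted p under 0.05 there were 2 of these 9, Ptgis and Hpgd, and 430 of the 9969, or 4.31%. This count and its genes changed with the setting. With added terms for LG21 and teprenone it was 1 of the 9, Ptgs2, beside 3.95% of filtered genes. That fit leaves fewer residual degrees of freedom than the 3 of the main fit. Its teprenone term is set by the Tep+Asp array alone, so this array adds nothing to the aspirin difference. The Ptgs2 difference in it was 0.21, the same as with the Tep+Asp array left out. Under cyclic loess the count was 3, Ptgis, Hpgd and Ptger1, beside 4.86% of filtered genes. Aspirin arrays lay wholly above the others in 2 of the 10 genes, Ptgis and Ptger1, where 8.68% of filtered genes did, and wholly below in 1, Hpgd, where 3.8% did. Without the LG21+GA array, which leaves GA+GA alone on its side and assumes that it varies like the aspirin arrays, 82 of all genes passed the adjusted threshold and still 0 of the pathway, with Ptgis nearest at a limma adjusted p of 0.0860. The Ptgis difference was 0.060 without GA+GA and 0.16 without LG21+GA, and that of Ptger1 was 0.083 without GA+GA and 0.18 without LG21+GA. Ptgs2 ran from 0.18 without GA+GA to 0.38 without GA+Asp.

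**Figure D4:**
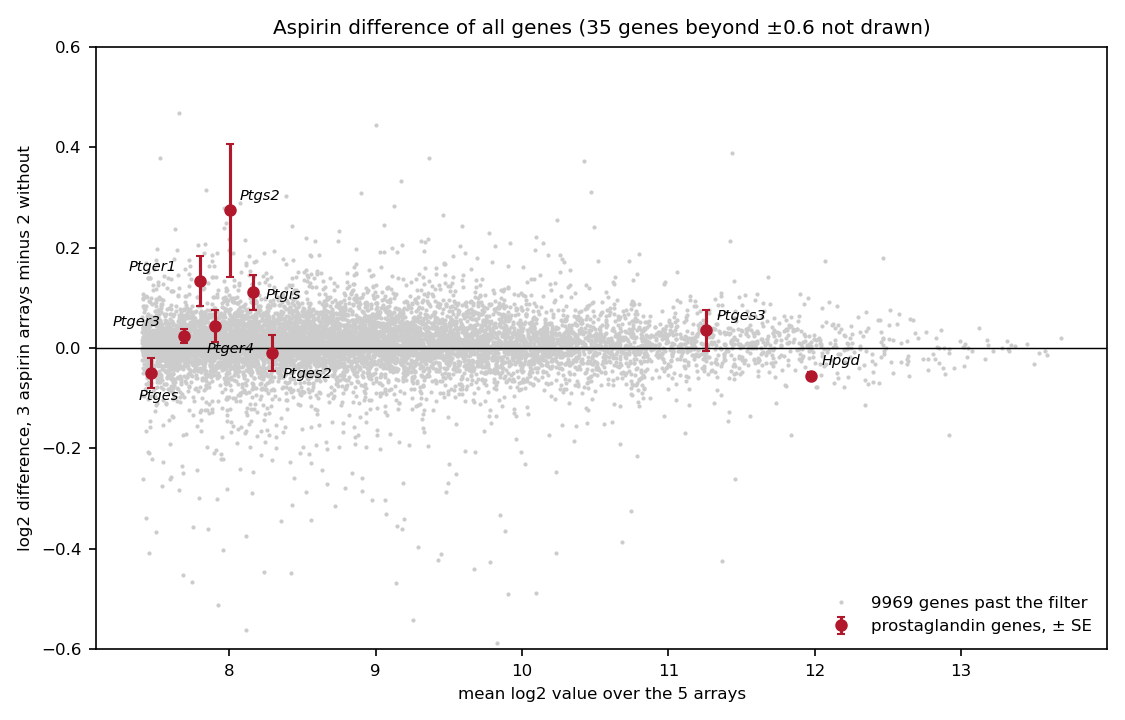
Log2 difference between the 3 aspirin arrays and the 2 without (vertical axis) against the mean log2 value (horizontal axis) for 9969 filtered genes in grey and the 9 filtered pathway genes in red, with standard errors from limma. Ptgs2 lies at 0.27 with the widest error, Ptger1 and Ptgis at 0.13 and 0.11, and Hpgd at -0.055; 35 genes beyond 0.6 are not drawn.

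The genes whose values over the 5 arrays most resembled those of Ptgs2 were Timp3, Chrdl1, Ppp1r1b, Podxl and Il17b, by the root mean square distance between centred log2 values, among 690 filtered genes whose range was at least 0.25. Timp3, an inhibitor of matrix metalloproteinases, was at a distance of 0.071, with 10.33 in LG21+Asp, 10.43 in Tep+Asp, 10.26 in GA+Asp, 10.15 in LG21+GA and 10.02 in GA+GA. Chrdl1, a BMP antagonist, was at 0.072, the phosphatase inhibitor gene Ppp1r1b at 0.073, the sialomucin gene Podxl at 0.076 and the cytokine gene Il17b at 0.078. With 5 arrays, some of many genes will resemble any given pattern.

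Of the other genes of prostanoid metabolism and sensing, 23 of 27 listed had a probe set of their own and 12 passed the filter. In GA+Asp against GA+GA 1 of the 23 was at least 0.2 higher and 1 lower, where 5.33% of all genes were that far apart, and the list median was 0.00. Both lay below the filter and were named after their values were seen. Ptgfr, the receptor of prostaglandin F2 alpha, stood at 7.36 in LG21+Asp, 7.36 in Tep+Asp, 7.67 in GA+Asp, 7.16 in LG21+GA and 7.28 in GA+GA. It was highest in GA+Asp, by 0.39 over the control, and both other aspirin arrays were 0.30 below it at exactly the same value. Pla2g4c, a cytosolic phospholipase, was 0.22 lower in GA+Asp than in GA+GA, and 0.21 higher in each of LG21+Asp and Tep+Asp than in GA+Asp. These 2 were the genes past 0.2 in LG21+Asp against GA+Asp, where 6.58% of all genes were, and in Tep+Asp against GA+Asp, where 4.48% were.

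LG21+GA against GA+GA held 0 of the 23 past 0.2 either way, against 3.53% of all genes, and LG21+Asp against Tep+Asp held 0 as well, against 4.77%. In LG21+Asp against LG21+GA 1 was higher, again Ptgfr (0.21), where 4.36% of all genes were that far apart. Of those past the filter, Slco2a1, the prostaglandin uptake transporter, had the largest difference with aspirin alone, at 11.50 in GA+Asp against 11.40 in GA+GA. On the other aspirin arrays it was at 11.49 in LG21+Asp and 11.47 in Tep+Asp, against 11.42 in LG21+GA, so that aspirin arrays lay above the others, 0.075 ± 0.016 apart (SE, limma adjusted p = 0.735). Pla2g4a, the cytosolic phospholipase that supplies arachidonic acid, was at 9.25 in LG21+Asp, 9.38 in Tep+Asp and 9.30 on each of the other 3 arrays.

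Of 13 lipoxygenase and leukotriene genes 4 passed the filter. With teprenone, Tep+Asp against GA+Asp, 3 were at least 0.2 higher and 0 lower, where 4.48% of all genes were that far apart. Named after their values were seen, they were Aloxe3 (0.40) and Alox12b (0.33), lipoxygenases of the epidermal barrier, and Alox12 (0.22), the platelet-type enzyme. LG21+Asp against Tep+Asp had 3 lower and 0 higher, Alox12b (-0.69), Aloxe3 (-0.35) and Cysltr2 (-0.21), where 4.77% of all genes were that far apart. Alox12b stood at 6.66 in LG21+Asp, 7.35 in Tep+Asp, 7.02 in GA+Asp, 7.01 in LG21+GA and 7.02 in GA+GA, with the extremes on the arrays that were also lowest and highest for the squamous markers. The list median was -0.057 in that pair and -0.11 in LG21+Asp against LG21+GA, 0.00 being the median of filtered genes in both pairs. The list median covers all 13 genes, 9 of them below the filter. In LG21+Asp against LG21+GA 2 were at least 0.2 lower and 0 higher, where 4.36% of all genes were that far apart. They were Alox12b (-0.35) and, past the filter, Lta4h (-0.22), which makes leukotriene B4.

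**Figure D5:**
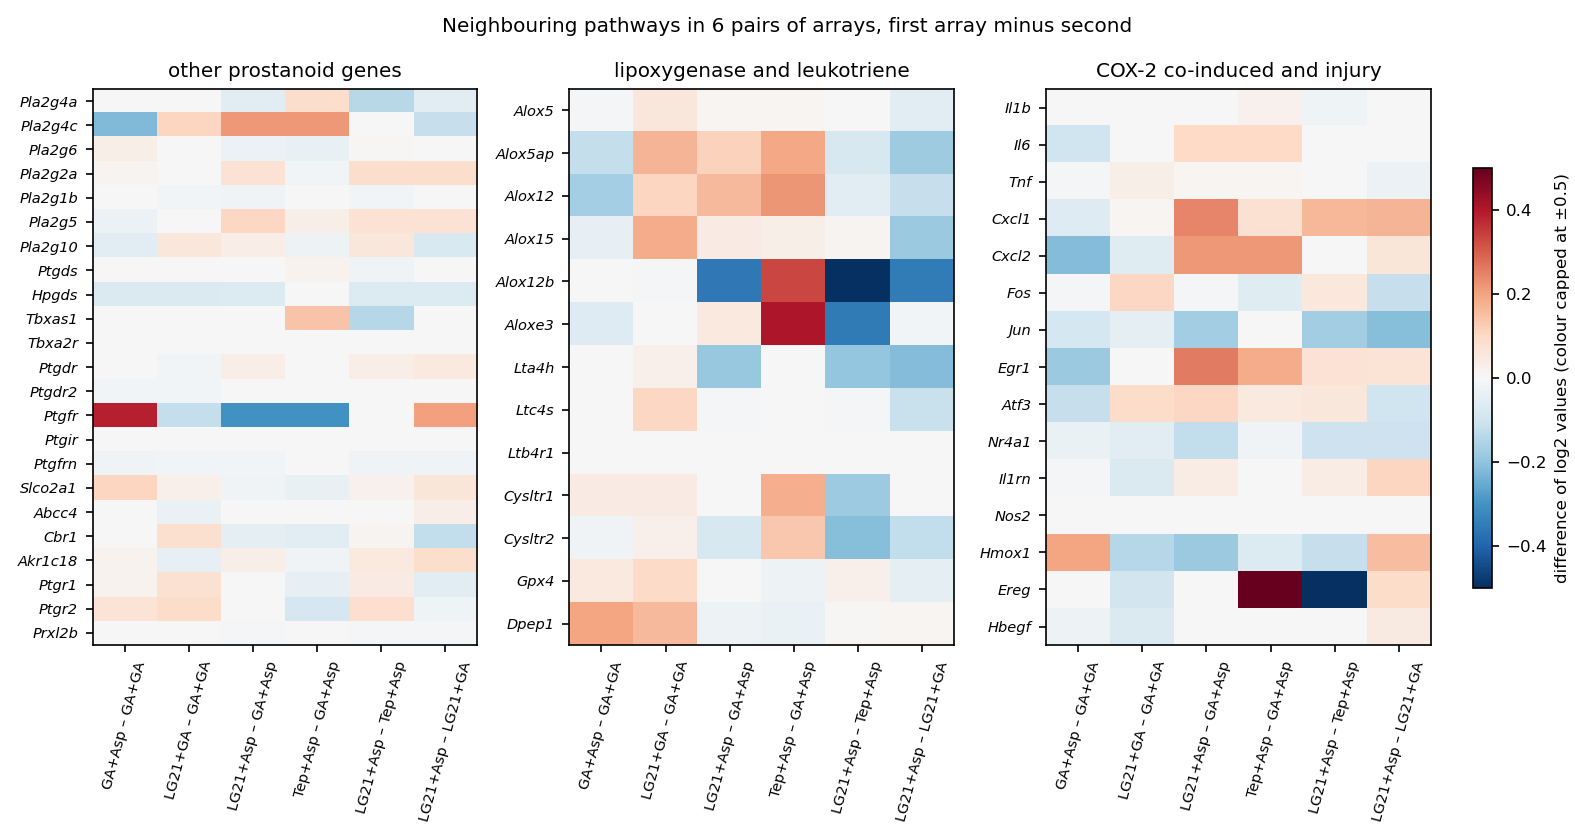
Differences of log2 values, first array minus second, in 6 pairs of arrays (columns, 1 array in each group) for genes (rows) of 3 neighbouring lists, red where the first is higher and blue where it is lower, with colour capped at 0.5 either way. Most cells are near white; Ptgfr reaches 0.39 in GA+Asp against GA+GA, Alox12b -0.69 and Ereg -0.51 in LG21+Asp against Tep+Asp.

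Genes often induced beside Ptgs2, among them cytokines, immediate early genes and EGF family ligands, numbered 15, of which 6 passed the filter. With aspirin alone 0 were at least 0.2 higher and 1 lower, against 5.33% of all genes either way. The lower gene was the neutrophil chemokine gene Cxcl2 (-0.22, below the filter and named after its value was seen). In LG21+Asp against GA+Asp 3 were higher and 0 lower, against 6.58% of all genes either way. They were the immediate early transcription factor Egr1 (0.26) and, below the filter and named after the values were seen, Cxcl1 (0.24) and Cxcl2 (0.22). Egr1 stood at 8.43 in LG21+Asp, 8.36 in Tep+Asp, 8.17 in GA+Asp, 8.36 in LG21+GA and 8.36 in GA+GA, with GA+Asp alone apart. Tep+Asp against GA+Asp had 2 higher and 0 lower, Ereg, an EGF family ligand (0.51), and Cxcl2 (0.22), both below the filter, where 4.48% of all genes were that far apart. LG21+Asp against LG21+GA had 0 higher and 1 lower, against 4.36% of all genes. That gene was Jun, an immediate early transcription factor past the filter, at 10.28 in LG21+Asp, with a difference of -0.21 against LG21+GA. LG21+Asp against Tep+Asp also had 0 higher and 1 lower, Ereg (-0.51), against 4.77% of all genes. Il1b ran only from 6.01 to 6.04 and Tnf from 6.40 to 6.44, both below the filter.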

How the data were processed

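Total RNA of 5 gut samples was hybridised to Affymetrix Mouse Gene 1.0 ST arrays. The deposited values are log2 expression values that the authors made by RMA in Expression Console, per the labels; the series' design text names the Exon Array Computational Tool, and no version or build is recorded there. The log2 scale was inferred from the values, which run from 1.32 to 13.87.

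The 35557 probe sets gave 19938 genes through 21789 single-symbol probe sets; 1621 named several genes and 12147 none. The probe set with the highest mean over the 5 arrays stood for a gene. All 10 genes matched RefSeq by gene identifier. Genes above the median mean (9969) were counted as filtered. Differences of log2 values were taken in 6 pairs of arrays, with no test, since there is 1 array per group and their number limits the precision. The 3 aspirin arrays and the 2 without were compared with limma 3.58.1 (R 4.3.3), Benjamini-Hochberg adjustment over all filtered genes and 3 residual degrees of freedom; Ptger2 was fitted over all genes. An exact permutation test has only 10 splits of the 5 arrays into 3 and 2, so it cannot go below p = 0.1. Such p-values measure the spread between arrays of different treatments. The fit was tested on simulated data.

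Named were all 10 genes, up to 3 filtered genes with the largest difference of each list, and the 5 genes most like Ptgs2; further names are marked. The members and lists were chosen with earlier results of these data known. Alternatives were other filters, a size of 0.3, the mean of probe sets, quantile normalization, cyclic loess with 3 iterations, leaving out each array, added terms for LG21 and teprenone, and a mean-variance trend.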

Additional observations from a re-analysis of the deposited data

How the results depend on the processing

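All 180 recomputed differences of the 10 genes, under quantile normalization, cyclic loess and the mean of probe sets, moved by 0.050 at most. Only Ptges3 has more than 1 probe set, so for the other genes the mean of probe sets could not move a value. A reversal was counted only for differences of at least 0.2, and 0 of these reversed. Some smaller differences changed sign. Under quantile normalization, Hpgd went from -0.0018 to 0.048 in LG21+GA against GA+GA, and Ptgis from -0.022 to 0.0035 in LG21+Asp against GA+Asp. In that setting Hpgd in GA+Asp against GA+GA went from -0.051 to -0.031. The Ptgs2 difference ran from 0.27 to 0.29 in LG21+Asp against GA+Asp, from 0.33 to 0.34 in Tep+Asp against GA+Asp and from 0.25 to 0.27 in LG21+Asp against LG21+GA. With a size of 0.3 in place of 0.2, 0 of the 10 genes were called in LG21+Asp against GA+Asp and 0 in LG21+Asp against LG21+GA, since fewer differences reach it. Without a filter the share of genes at least 0.2 apart was 6.58% in LG21+Asp against GA+Asp, 4.48% in Tep+Asp against GA+Asp and 4.77% in LG21+Asp against Tep+Asp, and 1.77% in the last with a filter at the 75th percentile; the cause was not tested. For the 3 aspirin arrays against the 2 without, limma called between 0 and 82 genes with 1 array left out, the 82 without LG21+GA, and 0 of the 9 genes past the filter each time. Ptgs2 had limma adjusted p-values from 0.616 to 1 over all settings, Ptgis from 0.0860 to 0.833, Hpgd from 0.195 to 0.833 and Ptger1 from 0.379 to 0.938. The other sign appeared in 4 of 90 recomputed values of these 9 genes, none of them past the threshold. By the smallest of its 4 differences in the square of LG21 and aspirin, Ptgs2 ranked 1 under quantile normalization and cyclic loess and 3 without a filter, alternatives chosen after seeing the data. No paired analysis was possible because the labels give no replicate numbers and each group has 1 array.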

Other observations

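Signalling genes below the EP receptors were read in the same pairs. Of 14 measured genes among adenylyl cyclases, phosphodiesterases, arrestins and genes that respond to cyclic AMP, 12 passed the filter and 0 were at least 0.2 apart in any of the 6 pairs of arrays. Per pair, between 2.42% and 3.68% of filtered genes were that far apart, so a count of 0 among 14 is near the background. The largest difference with aspirin alone was that of Sik1, a kinase gene induced by cyclic AMP, at 10.08 in GA+Asp against 9.92 in GA+GA. Arrb2, a beta-arrestin gene, stood at 8.17 in LG21+Asp, 8.17 in Tep+Asp, 8.17 in GA+Asp, 8.19 in LG21+GA and 8.05 in GA+GA, with the control alone lower. Adcy6 had 10.17 on each array.

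Hmox1, the gene of the stress-inducible heme oxygenase, was higher on all 3 aspirin arrays than on the others, at 8.53 in LG21+Asp, 8.65 in Tep+Asp and 8.72 in GA+Asp, against 8.38 in LG21+GA and 8.52 in GA+GA. The difference between the sides was 0.18 ± 0.078 (SE, limma adjusted p = 0.735). Aspirin arrays lay wholly above the others in 8.68% of filtered genes. Hmox1 is from the list of genes often induced beside Ptgs2, where others went the other way. For Jun, Atf3 and Fos the aspirin arrays lay wholly below, as in 3.8% of filtered genes. Their differences between the sides were -0.12, -0.11 and -0.080.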
